A study of Mus musculus with 12 samples.

Results

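The genes described here are those of the integrins and the laminins, a set chosen with earlier results of these data known. Within it genes were taken by symbol: every row named as an integrin alpha or beta chain or as a laminin alpha, beta or gamma chain. The count table of 23337 gene symbols held 37 of these genes, of which 18 encode integrin alpha chains, 8 integrin beta chains and 11 laminin chains. The filter on low counts kept 24 of the 37. RNA sequencing was run on 12 libraries of NU1, a line of normal mouse urothelial cells that became immortal by itself during passaging. There were 4 groups of 3 libraries, 1 each from experiments 5, 7 and 9. Proliferating control cells carried the hairpin labelled shNT and the genotype label WT, and proliferating knockdown cells carried 1 hairpin against Stag2, labelled sh4. Quiescent control and quiescent knockdown cells carried the same hairpins and were taken at day 7 after growth to confluence and addition of 1 µM rosiglitazone, which activates PPAR gamma, and 0.5 µM erlotinib, which blocks the EGF receptor kinase. All 12 libraries shared the line, a lentiviral hairpin and a complete medium with serum and EGF. Confluence, both drugs and time in culture came together, so their parts in any difference cannot be told apart, and with 1 hairpin neither can its target and other effects. P-values measure the spread between the 3 experiments of 1 cell line.

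Integrins are cell surface receptors made of 1 alpha and 1 beta chain, which join the extracellular matrix or other cells to the cytoskeleton. Laminins are secreted trimers of 1 alpha, 1 beta and 1 gamma chain and form, with type IV collagen, the sheet of basement membrane under an epithelium. In the urothelium, as in skin, basal cells hold on to laminin through the alpha 6 beta 4 integrin of hemidesmosomes and through alpha 3 beta 1. The laminin with the alpha 3 and beta 3 chains is the anchoring form of epithelia, and the laminin with the alpha 5 chain is the common form of mature basement membranes.

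Library totals ran from 14524429 to 21987539 counts, and 3 counts, the limit that a count of 0 allows, were 0.136 to 0.207 CPM (counts per 1000000 counts). CPM values use totals scaled by the TMM method of edgeR, and values given in sets of 3 are in the order of experiments 5, 7 and 9. Spike-in RNA of the ERCC set was added per the protocols, but the table holds 0 ERCC rows, so higher and lower are relative to the library's total and not to RNA per cell. Stag2, the target and a cohesin subunit, stood at 139, 145 and 113 CPM in proliferating controls and 33.3, 24.9 and 24.6 CPM in proliferating knockdown cells. In quiescent cells it stood at 128, 126 and 107 CPM with the control hairpin and 9.43, 15.3 and 11.7 CPM with the Stag2 hairpin, so the knockdown labels held in every library. The epithelial markers Krt8, Krt18, Krt19, Epcam and Cdh1 were high throughout, whereas Trp63, a marker of basal urothelium, had 0 counts in all 12 libraries, which allows up to 0.207 CPM in any of them, and Upk3a of the mature urothelial plaque had at most 1 count in any. Summed CPM stayed at or under 0.239 for the 7 endothelial markers and 2.68 for the 9 fibroblast markers. The leukocyte list summed to 15.7 to 171 CPM over the libraries and the platelet list to 19.9 to 138 CPM. Both are described below with Itga1 and Itga2b.

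Quiescent control cells carried a 3.09-fold lower level of Itga3, the main integrin alpha chain of these cells, and lower Lamb1, while Lamb2 was higher. These 3 genes moved the same way in knockdown cells. Itgb1, the most abundant integrin chain per length, did not pass the test (-0.24 ± 0.229 SE on the log2 scale in control cells). In bulk libraries, fewer cells that express a gene and less of its RNA per cell cannot be told apart. In edgeR no integrin or laminin gene passed for Stag2 knockdown in either state. Few genes of any kind did, 0.0242% of all in proliferating and 0.435% in quiescent cells. DESeq2 called 2 members in quiescent cells, Itga1 and Itgb5, beside 2.93% of all its genes.

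Per length, that is in CPM per kilobase of merged exons, the most abundant members in proliferating controls were Itgb1 at 379 ± 106 (SD, n = 3) and Itga3 at 356 ± 28.1. These are the chains of alpha 3 beta 1, a laminin receptor. Lama5 at 91.7 ± 30.1 and Itgb4 at 82.6 ± 19.1 were among the next, and their ranges over the 3 libraries overlapped. Lama3 at 57.5 ± 35.9, Lamb1 at 49.3 ± 5.69, Itgb5 at 45.7 ± 3.20 and Lamb3 at 45.0 ± 17.3 were lower, with spreads that also overlapped. Itga6 stood at 32.6 ± 7.10, far under its partner Itgb4 on the same scale. Of the 24 members, 8 had a mean under 1 CPM per kilobase in proliferating controls: Itga7, Itgb7, Itga2b, Itgb3, Itga10, Lamc3, Itga1 and Itga4. Itga2b and Itgb3 form the platelet fibrinogen receptor, and Itga4 and Itgb7 a receptor of lymphocytes.

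**Figure D1:**
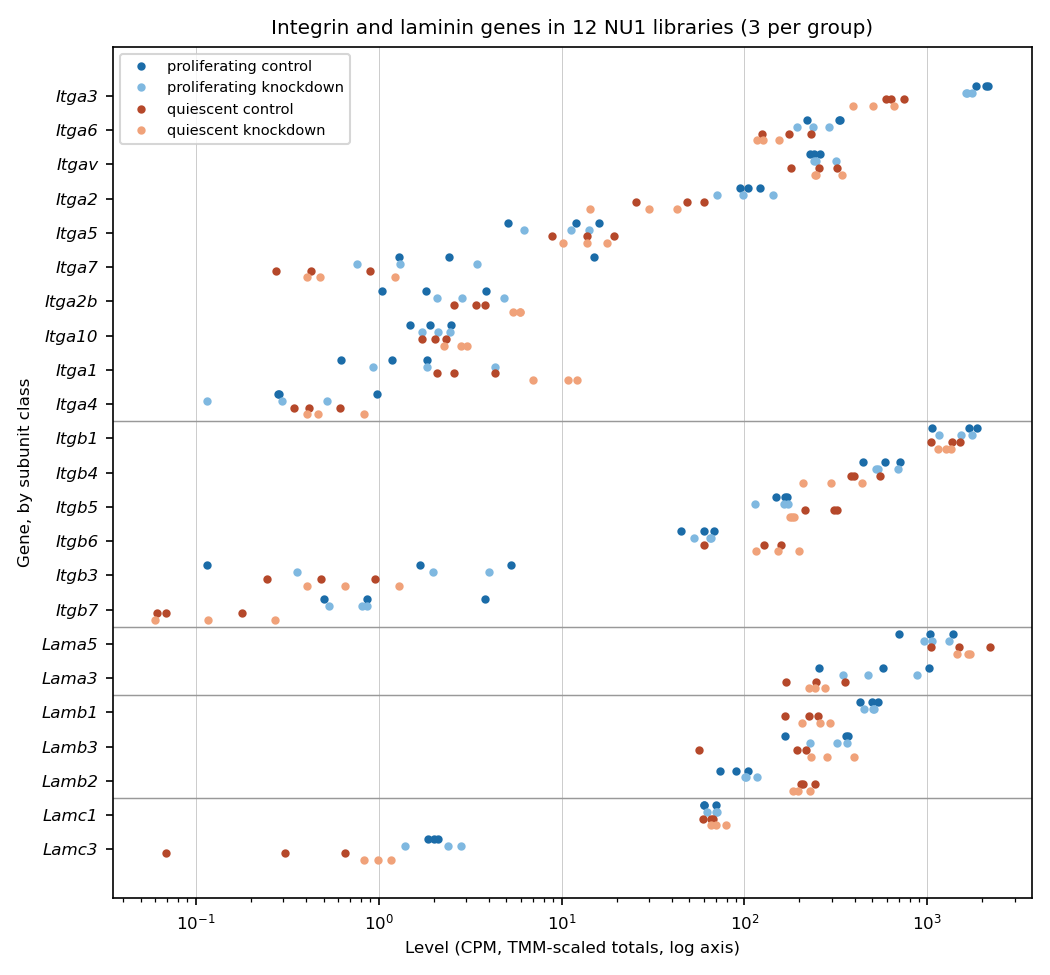
Level of 23 integrin and laminin genes that passed the filter, in CPM on a log axis, with 1 point for each library and colours for the 4 groups. The 3 quiescent control points of Itga3, at 597 to 742 CPM, lie under its 3 proliferating control points, at 1853 to 2158 CPM, and Lamb2 shows the opposite order.

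The other 13 members gave too few counts to test. Itga9 and Itgax had 0 counts in all 12 libraries, and Itga11, Itgad, Itgae, Itgal, Lama1, Lama4 and Lama2 reached at most 5 counts in any library. Itgam reached 7 counts, Itga8 13, Itgb8 15 and Itgb2, the beta chain of the leukocyte integrins, 20. Of the 5 laminin alpha genes, only Lama3 and Lama5 passed the filter. Reads of genes with overlapping exons can be shared: the exons of Itga1, Itga10 and Itgam overlap those of another gene model on the same strand, and those of Itga4 overlap Cerkl on the opposite strand.

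Quiescence was tested within each hairpin. In control cells 10 of the 24 members tested passed an adjusted p of 0.05 in edgeR's quasi-likelihood test, which is 41.7% of them beside 20.0% of the 12406 genes tested. Lamb2, Itgb5 and Itgb6 were higher (3 genes, beside 8.33% of all genes called higher), and 7 genes were lower, among them Itga3, Itga2, Itga7, Itgb7, Lamb1 and Lamc3 (beside 11.7% called lower). In knockdown cells 9 of 24 passed, or 37.5% beside 18.4% of all genes. There Lamb2, Itgb6 and Itga1 were higher (3, beside 7.59%), and 6 were lower, among them Itga3, Itga2, Itga6, Itgb4 and Lamb1 (beside 10.8%). The 6 genes called in both, among them Itga3, Itga2, Itgb6, Lamb1 and Lamb2, are 6 of the 10 and 6 of the 9. Each had the same direction in both. The share of all genes called in both is not given here, so the 6 do not set the members apart from other genes. Median log2 fold changes over the 24 were -0.31 in control and -0.12 in knockdown cells, beside 0.00 for all genes in each (0.00468 and 0.00454). Members high in 1 group could pass the filter through that group alone, so these counts describe the members and do not weigh them against other genes.

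With the experiment as a block (the replicate block), 14 members passed in each hairpin. In control cells 4 were higher and 10 lower, beside 35.3% of all genes called, 16.8% higher and 18.5% lower; Itga6, Lama3 and Lamb3 joined the lower genes and Lama5 the higher ones. In knockdown cells 4 were also higher and 10 lower, beside 33.0% of all genes, 15.9% higher and 17.2% lower. Itga2b joined the higher genes there, and Itga7, Itgb7, Lama3 and Lamc3 the lower ones. The block called 11 members in both hairpins, again without a share of all genes beside them.

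**Figure D2:**
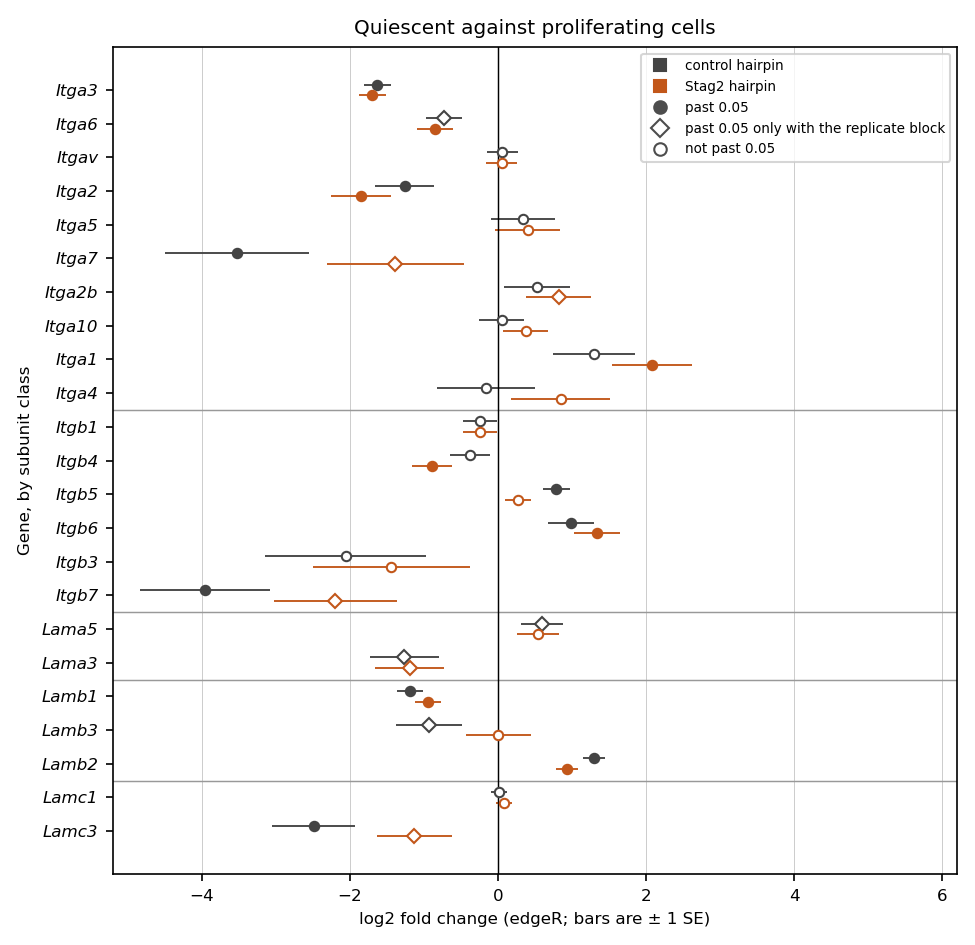
Log2 fold change of 23 members, quiescent minus proliferating, with the control hairpin and with the Stag2 hairpin; bars are 1 SE from edgeR, filled circles passed an adjusted p of 0.05, and diamonds passed only with the replicate block. Itga3, Itga2 and Lamb1 lie left of 0 and Lamb2 and Itgb6 right of 0 with both hairpins.

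The start regions of 5 genes called in both hairpins are shown because these genes moved with quiescence under either hairpin, Itga3, Itga2 and Lamb1 down and Lamb2 and Itgb6 up. RefSeq's promoter table for GRCm38.p6 held 23 of the 37 genes with 26 start sites. Itga3 and Itgb6 had 2 start sites each, and the outermost is shown. Each sequence is the part of the 250 bases before the start that holds no annotated exon, 5′ to 3′ on the gene's strand. Capitals mark the GC box, the motif GGGCGG on either strand, which factors of the Sp family bind. The windows are chr11:95076802-95076964 (minus strand) for Itga3, chr13:114932101-114932350 (minus) for Itga2, chr12:31265043-31265233 (plus) for Lamb1, chr9:108479612-108479735 (plus) for Lamb2 and chr2:60722644-60722853 (minus) for Itgb6.
Itga3: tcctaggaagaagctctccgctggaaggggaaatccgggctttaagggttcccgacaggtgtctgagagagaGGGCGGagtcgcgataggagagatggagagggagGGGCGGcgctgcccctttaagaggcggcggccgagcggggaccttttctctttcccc
Itga2: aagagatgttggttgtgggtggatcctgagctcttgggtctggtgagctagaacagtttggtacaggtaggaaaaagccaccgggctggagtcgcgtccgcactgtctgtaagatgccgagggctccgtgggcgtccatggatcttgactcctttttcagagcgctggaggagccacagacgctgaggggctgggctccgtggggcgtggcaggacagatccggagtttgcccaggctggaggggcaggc
Lamb1: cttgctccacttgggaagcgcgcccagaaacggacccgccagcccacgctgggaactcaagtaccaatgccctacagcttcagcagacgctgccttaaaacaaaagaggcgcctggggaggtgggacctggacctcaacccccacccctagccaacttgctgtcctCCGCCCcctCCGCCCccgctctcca
Lamb2: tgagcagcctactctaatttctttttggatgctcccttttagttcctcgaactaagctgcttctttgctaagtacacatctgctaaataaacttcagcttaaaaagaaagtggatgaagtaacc
Itgb6: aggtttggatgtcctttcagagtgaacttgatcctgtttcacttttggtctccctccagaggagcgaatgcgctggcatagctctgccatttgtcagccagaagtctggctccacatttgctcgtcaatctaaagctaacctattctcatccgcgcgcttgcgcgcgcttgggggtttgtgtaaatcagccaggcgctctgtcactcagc
In its whole window of 250 bases Itga3 held 3 GC boxes, 2 of them in the part shown, and 22 CpG dinucleotides, and Lamb1 held 2 GC boxes and 14 CpG. The inner start of Itga3 held 1 GC box and 5 CpG, and that of Itgb6 0 and 3. Itga2 held 0 GC boxes and 12 CpG, Lamb2 0 and 3, and Itgb6 0 and 11. Over all 32851 promoters of the same length, 32.7% held a GC box and the median was 6 CpG. Among the member promoters 9 of 26 held one. The AP-1 motif TGANTCA, searched on both strands and unable to overlap a GC box, was in 6.7% of all promoters, in 1 of the 26, that of Itgax, and in none of the 5 shown. These are letter matches in a window and no measure of binding.

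Among the alpha chains, Itga3 (chr11:95044474-95076801, minus strand) pairs with beta 1 to bind the laminins of the alpha 3 and alpha 5 chains. Itga3 stood at 1853, 2158 and 2093 CPM in proliferating controls, 1624, 1759 and 1644 CPM in proliferating knockdown cells, 597, 742 and 635 CPM in quiescent controls and 390.2, 657 and 503 CPM in quiescent knockdown cells. Every quiescent library lay under every proliferating one with either hairpin. Itga3 fell with quiescence in control cells (log2 fold change -1.63 ± 0.182 SE, adjusted p = 0.00021 by edgeR) and in knockdown cells (log2 fold change -1.70 ± 0.183 SE, adjusted p = 0.000394 by edgeR). Within experiments the log2 differences were -1.63, -1.54 and -1.72 in control and -2.06, -1.42 and -1.71 in knockdown cells. The size thus differed little between experiments in control cells and more in knockdown cells. Itga3 was the only member whose calls in both hairpins held in all 12 fits that left out 1 library and in all 3 that left out an experiment.

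Itga6 (chr2:71745616-71858416, plus strand) encodes the alpha chain that joins beta 4 in hemidesmosomes. Itga6 stood at 331, 331 and 220.0 CPM in proliferating controls, 291, 236 and 193 CPM in proliferating knockdown cells, 232, 175 and 124 CPM in quiescent controls and 127, 154 and 118 CPM in quiescent knockdown cells. In knockdown cells the quiescent libraries were all under the proliferating ones and Itga6 fell (log2 fold change -0.85 ± 0.244 SE, adjusted p = 0.033 by edgeR). In control cells the groups overlapped, because the quiescent library of experiment 5 exceeded the proliferating one of experiment 9, and the decrease passed only with the block (log2 fold change -0.73 ± 0.243 SE, adjusted p = 0.0542 by edgeR; blocked -0.75 and adjusted p = 0.00312). The Itga6 call in knockdown cells was lost without the proliferating knockdown library of experiment 5 or 7 or the quiescent knockdown library of experiment 5 or 9 (adjusted p 0.077 to 0.12, log2 fold change -0.87 to -0.69) and without all of experiment 5 or 7 (adjusted p 0.152 to 0.156).

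Itga2 (chr13:114833081-114932100, minus strand) encodes the alpha chain of a collagen and laminin receptor. Itga2 stood at 122, 105 and 94.3 CPM in proliferating controls, 98.4, 71.1 and 143 CPM in proliferating knockdown cells, 60.0, 25.6 and 48.6 CPM in quiescent controls and 14.3, 29.9 and 42.8 CPM in quiescent knockdown cells. All 6 quiescent libraries were under all 6 proliferating ones. Itga2 fell in control cells (log2 fold change -1.26 ± 0.395 SE, adjusted p = 0.0446 by edgeR) and in knockdown cells (log2 fold change -1.85 ± 0.403 SE, adjusted p = 0.00959 by edgeR). The Itga2 call in control cells was lost without the proliferating control library of experiment 5, 7 or 9, the proliferating knockdown library of experiment 5, the quiescent control library of experiment 5, 7 or 9 or the quiescent knockdown library of experiment 7 (adjusted p 0.0538 to 0.127, log2 fold change -1.51 to -0.97) and without all of experiment 5, 7 or 9 (adjusted p 0.0568 to 0.26). The Itga2 call in knockdown cells was lost without all of experiment 7 or 9 (adjusted p 0.0534 to 0.0549).

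Itga1, the alpha chain of another collagen receptor, was low. Itga1 stood at 1.18, 1.85 and 0.625 CPM in proliferating controls, 0.933, 1.85 and 4.30 CPM in proliferating knockdown cells, 4.35, 2.57 and 2.09 CPM in quiescent controls and 6.98, 10.9 and 12.2 CPM in quiescent knockdown cells. The quiescent knockdown libraries stood above all other groups. Itga1 rose with quiescence in knockdown cells (log2 fold change 2.08 ± 0.545 SE, adjusted p = 0.0228 by edgeR), and in control cells the groups did not overlap but the test was not passed (log2 fold change 1.29 ± 0.558 SE, adjusted p = 0.124 by edgeR). The Itga1 call in knockdown cells was lost without the proliferating knockdown library of experiment 5 or 7 or the quiescent knockdown library of experiment 7 or 9 (adjusted p 0.0501 to 0.0853, log2 fold change 1.70 to 2.03) and without all of experiment 5 or 7 (adjusted p 0.0726 to 0.197). Csf1r, which made up nearly all of the leukocyte list, was also highest in quiescent knockdown cells. Its means were 20.8 and 35.8 CPM in proliferating control and knockdown cells, and 42.0 and 125 CPM in quiescent ones. The summed list ran from 26.5 to 55.7 CPM in proliferating and from 111 to 171 CPM in quiescent knockdown cells. Cd52 was higher in the latter too (mean 0.213 and 2.24 CPM). Cd68 was even between these 2 groups (mean 4.69 and 4.75 CPM) and highest in quiescent controls (5.56 CPM). Ptprc reached at most 0.408 CPM, and Cd3e and Tyrobp had 0 counts in every library (up to 0.207 CPM each); the part of such cells in the result was not tested.

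Itga7, known as a laminin receptor chain of muscle, was lower in quiescent controls than in proliferating ones in all 3 experiments. Itga7 stood at 1.29, 2.42 and 15.0 CPM in proliferating controls, 0.758, 1.31 and 3.44 CPM in proliferating knockdown cells, 0.276, 0.428 and 0.895 CPM in quiescent controls and 0.408, 0.477 and 1.23 CPM in quiescent knockdown cells. It fell in control cells (log2 fold change -3.52 ± 0.972 SE, adjusted p = 0.0269 by edgeR), where the proliferating library of experiment 9 was far above the rest. The Itga7 call in control cells was lost without the proliferating control library of experiment 9 or the quiescent control library of experiment 5 or 7 (adjusted p 0.0805 to 0.156, log2 fold change -3.37 to -1.78), without all of experiment 5, 7 or 9 (adjusted p 0.0519 to 0.163) and in a fit of that hairpin alone (adjusted p 0.0625). In knockdown cells the decrease passed only with the block (log2 fold change -1.39 ± 0.921 SE, adjusted p = 0.323 by edgeR; blocked -1.31 and adjusted p = 0.0348).

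Itga2b, the platelet alpha chain, was present at a low level. Itga2b stood at 3.87, 1.04 and 1.82 CPM in proliferating controls, 4.84, 2.09 and 2.87 CPM in proliferating knockdown cells, 3.80, 2.57 and 3.40 CPM in quiescent controls and 5.94, 5.90 and 5.45 CPM in quiescent knockdown cells. Its quiescent knockdown libraries were the highest of any group, and the increase with quiescence in knockdown cells passed only with the block (log2 fold change 0.82 ± 0.439 SE, adjusted p = 0.218 by edgeR; blocked 0.91 and adjusted p = 0.0411). Of the other platelet markers Ppbp was expressed (mean 91.7 CPM in proliferating controls, 32.5 CPM in quiescent controls and 108 CPM in quiescent knockdown cells), whereas Pf4 and Gp9 reached at most 0.117 CPM. The summed list ran from 84.2 to 116 CPM in proliferating and from 80.9 to 138 CPM in quiescent knockdown cells, and its part in the result was not tested.

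The remaining alpha chains passed in no comparison. Itgav, which pairs with beta 5 and beta 6, ranged from 180.3 to 340.1 CPM over the 12 libraries, with log2 fold changes of 0.06 (SE 0.208) and 0.05 (SE 0.207) for quiescence in control and knockdown cells. Itga5, the fibronectin receptor chain, ranged from 5.08 to 19.3 CPM, Itga10 from 1.48 to 3.04 CPM and Itga4 from 0.115 to 0.981 CPM. Summed over the 18 genes, the alpha chains gave 430.4 ± 23.9 CPM per kilobase in proliferating and 168.7 ± 6.78 in quiescent controls (SD, n = 3). Knockdown cells gave 363.1 ± 5.88 and 140.2 ± 26.6. Itga3 held 82.7% of the sum in proliferating and 68.3% in quiescent controls, while Itgav held 5.24% and 13.9%.

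Of the beta chains, Itgb1 (chr8:128685654-128733200, plus strand) is the common partner of the alpha 1 to alpha 6 chains. Itgb1 stood at 1699, 1879 and 1059 CPM in proliferating controls, 1531, 1756 and 1161 CPM in proliferating knockdown cells, 1514, 1364 and 1049.5 CPM in quiescent controls and 1352, 1266 and 1148 CPM in quiescent knockdown cells. The groups overlapped in every comparison, and experiment 9 was the lowest library of each group. Its log2 fold change with quiescence was -0.24 (SE 0.229) in control and -0.24 (SE 0.229) in knockdown cells, with edgeR adjusted p = 0.491 and 0.501.

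Itgb4 (chr11:115974709-116008412, plus strand) is the hemidesmosome chain whose long cytoplasmic tail binds plectin. Itgb4 stood at 710.0, 585 and 443 CPM in proliferating controls, 693, 539.8 and 524 CPM in proliferating knockdown cells, 381, 553 and 399 CPM in quiescent controls and 209.7, 440.1 and 297 CPM in quiescent knockdown cells. In knockdown cells the quiescent libraries were all lower and Itgb4 fell (log2 fold change -0.89 ± 0.270 SE, adjusted p = 0.041 by edgeR). In control cells the groups overlapped (log2 fold change -0.38 ± 0.268 SE, adjusted p = 0.338 by edgeR). The Itgb4 call in knockdown cells was lost without the proliferating control library of experiment 7, the proliferating knockdown library of experiment 5, 7 or 9, the quiescent control library of experiment 5 or the quiescent knockdown library of experiment 5 or 9 (adjusted p 0.0506 to 0.129, log2 fold change -0.97 to -0.67), without all of experiment 5, 7 or 9 (adjusted p 0.0534 to 0.21) and in a fit of that hairpin alone (adjusted p 0.0577).

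Itgb5 (chr16:33829665-33949338, plus strand) and Itgb6 (chr2:60598292-60722643, minus strand) encode partners of the alpha v chain in receptors for vitronectin and for latent TGF-beta. Itgb5 stood at 171, 166 and 149 CPM in proliferating controls, 172, 165 and 114 CPM in proliferating knockdown cells, 213, 307 and 320.1 CPM in quiescent controls and 182, 186 and 178 CPM in quiescent knockdown cells. With the control hairpin every quiescent library exceeded every proliferating one and Itgb5 rose (log2 fold change 0.79 ± 0.180 SE, adjusted p = 0.0111 by edgeR), a call kept in all 12 fits that left out 1 library. The Itgb5 call in control cells was lost without all of experiment 7 or 9 (adjusted p 0.0841 to 0.167). In knockdown cells the groups did not overlap either, but the test was not passed (log2 fold change 0.27 ± 0.179 SE, adjusted p = 0.317 by edgeR). The difference between these changes is the interaction, which did not pass either (log2 fold change -0.52 ± 0.253 SE, adjusted p = 1 by edgeR).

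Itgb6 stood at 60.3, 68.5 and 45.0 CPM in proliferating controls, 53.2, 65.1 and 66.0 CPM in proliferating knockdown cells, 158, 60.0 and 128 CPM in quiescent controls and 152, 115 and 199 CPM in quiescent knockdown cells. Itgb6 rose with quiescence in knockdown cells (log2 fold change 1.34 ± 0.315 SE, adjusted p = 0.014 by edgeR). The Itgb6 call in knockdown cells was lost without the quiescent knockdown library of experiment 9 (adjusted p 0.0611, log2 fold change 1.12) and without all of experiment 5 or 9 (adjusted p 0.0874 to 0.134). In control cells it rose as well (log2 fold change 0.99 ± 0.313 SE, adjusted p = 0.0458 by edgeR), but the groups overlapped, since the quiescent library of experiment 7 was in the range of the proliferating ones, and the differences within experiments were 1.39, -0.19 and 1.50. The Itgb6 call in control cells was lost without the proliferating control library of experiment 5, 7 or 9, the proliferating knockdown library of experiment 5, 7 or 9, the quiescent control library of experiment 5 or 9 or the quiescent knockdown library of experiment 5 (adjusted p 0.0532 to 0.177, log2 fold change 0.71 to 1.13), without all of experiment 5 or 9 (adjusted p 0.26 to 0.3) and in a fit of that hairpin alone (adjusted p 0.0978).

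Itgb7, a leukocyte beta chain, was near the limit of counting. Itgb7 stood at 0.505, 0.866 and 3.81 CPM in proliferating controls, 0.816, 0.536 and 0.861 CPM in proliferating knockdown cells, 0.0690, 0.0612 and 0.179 CPM in quiescent controls and 0.272, 0.0596 and 0.117 CPM in quiescent knockdown cells. It fell in control cells (log2 fold change -3.96 ± 0.882 SE, adjusted p = 0.0099 by edgeR). The quiescent control libraries held 1, 1 and 3 counts, so the fitted size depends on the prior count. Without the proliferating control library of experiment 9, the highest one, the log2 fold change was -2.63 and the call held. The Itgb7 call in control cells was lost without all of experiment 7 or 9 (adjusted p 0.0763 to 0.0972). In knockdown cells it passed only with the block (log2 fold change -2.19 ± 0.830 SE, adjusted p = 0.09 by edgeR; blocked -2.18 and adjusted p = 0.0402). Itgb3, the partner of Itga2b in platelets, ranged from 0.115 to 5.28 CPM and passed in no comparison. The beta chains summed to 516.4 ± 124 CPM per kilobase in proliferating and 479.5 ± 49.3 in quiescent controls (SD, n = 3), and their ranges, 373.6 to 600.8 and 422.6 to 508.2, overlapped.

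Of the laminin beta chain genes, Lamb1 (chr12:31265234-31329644, plus strand) and Lamb2 (chr9:108479736-108490530, plus strand) encode the alternative beta chains of laminins with alpha 5. Lamb1 stood at 539, 499.9 and 428 CPM in proliferating controls, 505, 510.1 and 449 CPM in proliferating knockdown cells, 224, 254 and 167 CPM in quiescent controls and 259, 293 and 207 CPM in quiescent knockdown cells. Lamb2 stood at 104, 90.3 and 73.7 CPM in proliferating controls, 102, 100.3 and 117 CPM in proliferating knockdown cells, 245, 209.9 and 203 CPM in quiescent controls and 197, 185 and 229 CPM in quiescent knockdown cells. In both hairpins the proliferating and quiescent libraries were fully apart for each gene, with Lamb1 high in proliferating and Lamb2 high in quiescent cells.

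Lamb1 fell in control cells (log2 fold change -1.19 ± 0.178 SE, adjusted p = 0.00117 by edgeR) and in knockdown cells (log2 fold change -0.95 ± 0.177 SE, adjusted p = 0.00438 by edgeR). Lamb2 rose in control cells (log2 fold change 1.29 ± 0.148 SE, adjusted p = 0.000237 by edgeR) and in knockdown cells (log2 fold change 0.94 ± 0.147 SE, adjusted p = 0.00194 by edgeR). Within experiments Lamb2 differed by 1.23, 1.22 and 1.46 on the log2 scale in control and 0.95, 0.89 and 0.96 in knockdown cells. The calls of both genes held in all 12 fits that left out 1 library. The Lamb1 call in knockdown cells was lost without all of experiment 5 (adjusted p 0.0524). The Lamb2 call in knockdown cells was lost without all of experiment 7 (adjusted p 0.0514).

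Lamb3 (chr1:193207699-193343878, plus strand) encodes the beta chain of the anchoring laminin. Lamb3 stood at 359.9, 367 and 166 CPM in proliferating controls, 319, 362 and 228 CPM in proliferating knockdown cells, 216, 193 and 56.8 CPM in quiescent controls and 399, 232 and 282 CPM in quiescent knockdown cells. The quiescent control library of experiment 9 was the lowest of all 12. With quiescence in control cells Lamb3 passed only with the block (log2 fold change -0.94 ± 0.447 SE, adjusted p = 0.16 by edgeR; blocked -1.01 and adjusted p = 0.0267). Without that library the log2 fold change was -0.54. In knockdown cells the value was 0.01 (SE 0.442, edgeR adjusted p = 0.995).

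Lama3 (chr18:12333819-12583013, plus strand), the alpha chain of the same laminin, was spread among proliferating libraries. Lama3 stood at 1024, 574 and 257 CPM in proliferating controls, 884, 473 and 348 CPM in proliferating knockdown cells, 355, 247 and 168 CPM in quiescent controls and 225, 277 and 245 CPM in quiescent knockdown cells. Experiment 5 was the highest and experiment 9 the lowest of the proliferating libraries with each hairpin. The decrease with quiescence passed only with the block, in control cells (log2 fold change -1.27 ± 0.466 SE, adjusted p = 0.0777 by edgeR; blocked -1.17 and adjusted p = 0.0118) and in knockdown cells (log2 fold change -1.19 ± 0.465 SE, adjusted p = 0.0992 by edgeR; blocked -1.01 and adjusted p = 0.0241).

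Lama5 (chr2:180176373-180225859, minus strand) encodes the alpha chain of the widespread laminin. Lama5 stood at 1038, 1391 and 704 CPM in proliferating controls, 1062, 1321 and 956 CPM in proliferating knockdown cells, 2208, 1495 and 1049 CPM in quiescent controls and 1713, 1671 and 1457 CPM in quiescent knockdown cells. In control cells the groups overlapped, and in knockdown cells they did not. The increase with quiescence passed only in control cells and with the block (log2 fold change 0.60 ± 0.284 SE, adjusted p = 0.157 by edgeR; blocked 0.60 and adjusted p = 0.0423). In knockdown cells it was not passed (log2 fold change 0.54 ± 0.284 SE, adjusted p = 0.213 by edgeR; blocked 0.55 and adjusted p = 0.0623).

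Lamc1 (chr1:153218922-153332786, minus strand), the gamma chain of the laminin with alpha 5, was even. Lamc1 stood at 59.9, 69.7 and 60.3 CPM in proliferating controls, 62.3, 70.8 and 70.4 CPM in proliferating knockdown cells, 67.4, 65.5 and 59.1 CPM in quiescent controls and 65.9, 79.2 and 70.1 CPM in quiescent knockdown cells. All 12 libraries lay between 59.1 and 79.2 CPM, and the log2 fold change with quiescence was 0.02 (SE 0.113) in control and 0.08 (SE 0.113) in knockdown cells. Lamc3, a gamma chain of few tissues, was scarce. Lamc3 stood at 1.85, 2.02 and 2.10 CPM in proliferating controls, 1.40, 2.38 and 2.81 CPM in proliferating knockdown cells, 0.0690, 0.306 and 0.656 CPM in quiescent controls and 0.997, 0.835 and 1.17 CPM in quiescent knockdown cells. It fell in control cells (log2 fold change -2.49 ± 0.558 SE, adjusted p = 0.0102 by edgeR), a call kept in all 12 fits that left out 1 library. The Lamc3 call in control cells was lost without all of experiment 7 (adjusted p 0.161). In knockdown cells it passed only with the block (log2 fold change -1.13 ± 0.508 SE, adjusted p = 0.146 by edgeR; blocked -1.08 and adjusted p = 0.0466).

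Per length the make-up of the laminin alpha and beta chain classes differed between the states. Lama5 held 48.9%, 69.6% and 72.1% of the summed alpha chain CPM per kilobase in proliferating controls of experiments 5, 7 and 9, and 85.4%, 85.1% and 85.5% in quiescent controls, with Lama3 as the rest. Among the beta chains Lamb2 held 13.6%, 12.3% and 15.1% in proliferating and 42.1%, 38.6% and 56.8% in quiescent controls. Lamb1 held 43.2%, 41.7% and 53.7%, then 23.6%, 28.6% and 28.6%. In quiescent knockdown cells Lamb2 held 27.2%, 32.1% and 37.2% and Lamb3 50.8%, 36.9% and 42.2%, whereas Lamb3 held 34.2%, 32.7% and 14.6% in quiescent controls.

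**Figure D3:**
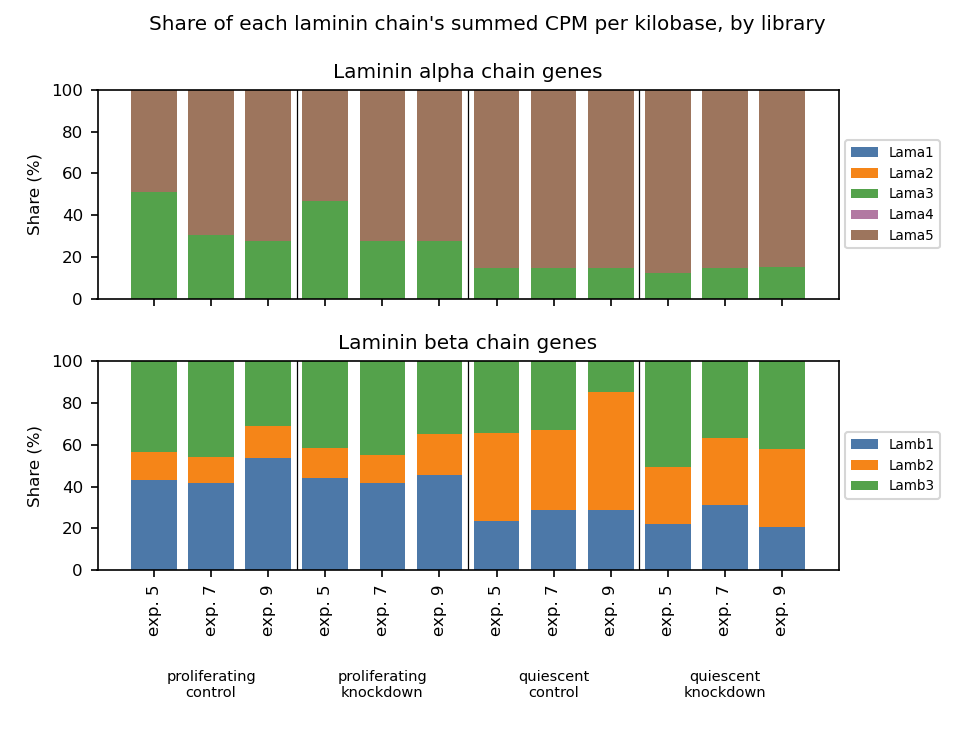
Share in percent of each gene in the summed CPM per kilobase of its laminin chain class, for each of the 12 libraries in 2 panels (alpha and beta chains). The Lamb2 segment is between 12.3% and 19.5% in the 6 proliferating libraries and between 27.2% and 56.8% in the 6 quiescent ones.

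Summed over the class, the laminin beta chains gave 109 ± 25.0 CPM per kilobase in proliferating and 81.3 ± 19.6 in quiescent controls (SD, n = 3). The laminin alpha chains gave 149 ± 55.3 and 163 ± 60.1, and in either class the ranges overlapped.

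Stag2 knockdown was compared with the control hairpin in each state, and the knockdown contrast of a state shares its libraries with the quiescence contrasts above. In proliferating cells edgeR called 0 of 24 members, beside 0.0242% of all genes (3 genes, 0.0242% also with the block). At an unadjusted p under 0.05 there were 0 members without and 1 with the block, beside 228 and 645 of the 12406 genes. DESeq2 called 0 members. Itga3 was lower in each knockdown library than in any control library of that state, with log2 differences of -0.19, -0.29 and -0.35 within experiments (log2 fold change -0.28 ± 0.178 SE, adjusted p = 1 by edgeR). Lamb2 (0.25 ± 0.146 SE), Lamb1 (-0.00282 ± 0.175 SE) and Lamc1 (0.10 ± 0.113 SE) had the smallest errors among the members, beside Itga3. The median over the members was -0.02, beside 0.00 over all genes (-0.00218).

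In quiescent cells edgeR called 0 of 24 members as well, beside 0.435% of all genes without and 3.55% with the block. Members at an unadjusted p under 0.05 numbered 3 without the block, Itgb5, Itga1 and Lamc3, and 7 with it, beside 1489 and 2527 of the 12406 genes. DESeq2 called 2 members, Itga1 and Itgb5, beside 2.93% of its 12854 genes. The median log2 fold change of the members was 0.20, beside 0.02 over all genes (0.0157).

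Itgb5 had lower values in every quiescent knockdown library than in any quiescent control (log2 fold change -0.62 ± 0.179 SE, adjusted p = 0.175 by edgeR; blocked -0.62 and adjusted p = 0.0761; DESeq2 -0.63, adjusted p = 0.0415). Itga1 had higher values in each (log2 fold change 1.74 ± 0.538 SE, adjusted p = 0.209 by edgeR; blocked 1.68 and adjusted p = 0.0906; DESeq2 1.74, adjusted p = 0.0445). Lamc3 also had higher values in each (log2 fold change 1.50 ± 0.560 SE, adjusted p = 0.312 by edgeR; blocked 1.57 and adjusted p = 0.0879). Itga2b (0.82 ± 0.440 SE) and Lamb3 had no overlap either, also with higher values. The values of Lamb3 were higher with a wide spread of 0.88, 0.26 and 2.31 between experiments (log2 fold change 0.97 ± 0.447 SE, adjusted p = 0.423 by edgeR; blocked 1.15 and adjusted p = 0.07). For the most abundant members the values were -0.35 (SE 0.178) for Itga3, -0.06 (SE 0.229) for Itgb1 and 0.03 (SE 0.283) for Lama5.

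The interaction sets the difference between hairpins in quiescence against the one in proliferation. It called 0 members and 0% of all genes, with or without the block. At an unadjusted p under 0.05 there were 0 members, beside 219 of the 12406 genes, and 3 with the block, beside 590. DESeq2 called 0 members. With 3 experiments the errors were wide for the scarce members (Itga7 2.13, SE 1.31) and narrower for the abundant ones (Itga3 -0.07, SE 0.251, and Lamb2 -0.36, SE 0.206). No change of a member with quiescence was thus shown to differ between the hairpins.

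**Figure D4:**
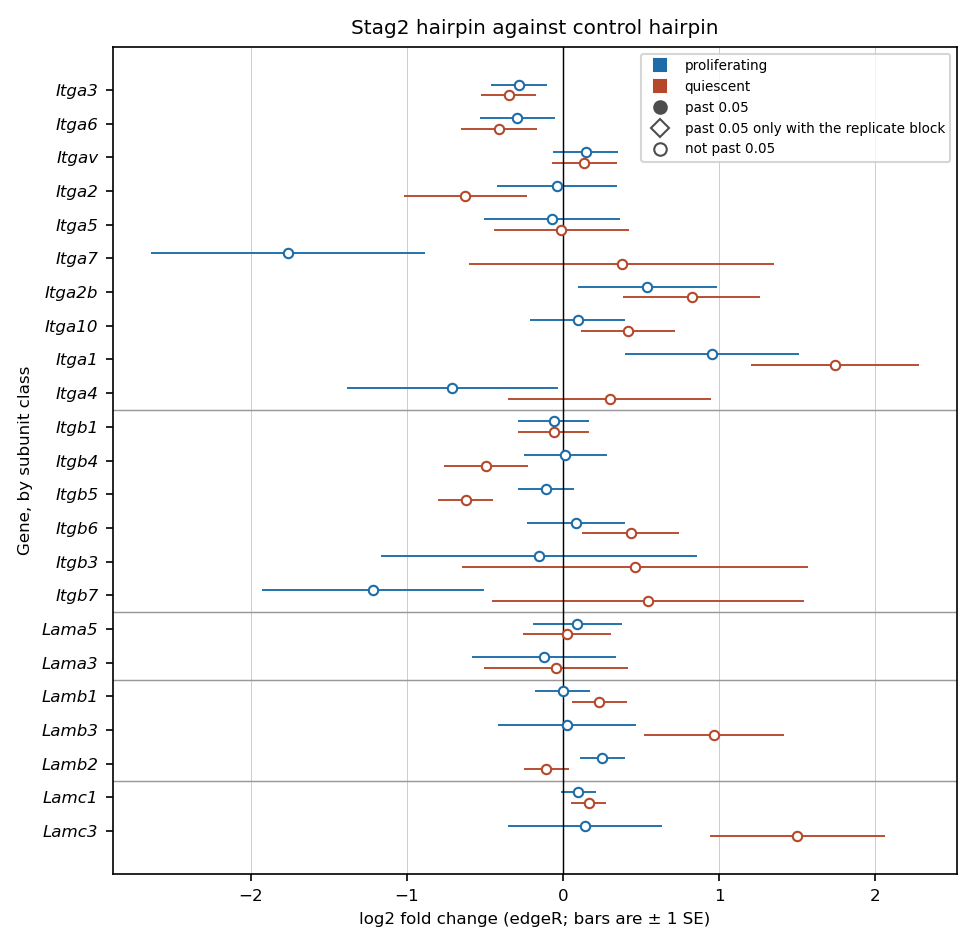
Log2 fold change of 23 members, Stag2 hairpin minus control hairpin, in proliferating and in quiescent cells; bars are 1 SE from edgeR. No symbol is filled, since no member passed an adjusted p of 0.05 in edgeR; Itga1 and Lamc3 lie farthest right of 0 in quiescent cells and Itga7 farthest left in proliferating cells.

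The share of variance across the 12 libraries that the 4 groups held, on log2 CPM, had a median of 60.0% over the members and 48.1% over all genes tested, and the experiment held 23.8% and 21.5%. Itga3 was at the upper end with 96.0% on the group, followed by Lamb2 with 94.0% and Lamb1 with 90.0%. Itgb1 had 66.6% on the experiment and 16.5% on the group. Itga5, with 62.6% on the experiment, and Itgb3, with 59.2%, were alike in this. Labels tie each experiment to a batch of its own, present in every group.

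Genes that work with integrins and laminins were taken from 4 lists. Of 26 tested genes for adaptors, activators and focal adhesions, 6 rose and 5 fell with quiescence in control cells, beside 20.0% of all genes called (median log2 fold change -0.07, beside 0.00 for all genes). Parvb (-1.21, edgeR adjusted p = 0.0386), Parva (-0.69, 0.00145), both parvins of the complex with integrin-linked kinase, and Ptk2 (-0.77, 0.00547), the focal adhesion kinase, fell most. Among the genes that passed without the block, Lims2 (2.31, 0.0184), vinculin Vcl (0.87, 0.0162) and Rsu1 (0.76, 0.0168) rose most. In knockdown cells 4 rose and 4 fell, beside 18.4% of all genes: Vcl, Rsu1, Fermt2 and Actn4 higher, and Parvb, Parva, Ptk2 and Pxn lower.

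Of 7 hemidesmosome and anchorage partners, 0 rose and 2 fell with quiescence in control cells, beside 11.7% of all genes called lower (median -0.25). With the block 3 fell, beside 18.5%. Without the block these were Krt14 (log2 fold change -4.16 ± 0.557 SE, adjusted p = 0.000601 by edgeR) and Krt5 (log2 fold change -2.04 ± 0.480 SE, adjusted p = 0.013 by edgeR), keratins of basal cells. Krt14 stood at 10.6, 6.87 and 9.77 CPM in proliferating controls, 7.87, 4.94 and 6.71 CPM in proliferating knockdown cells, 0.414, 0.184 and 0.895 CPM in quiescent controls and 0.408, 0.835 and 1.46 CPM in quiescent knockdown cells. Both keratins were scarce, with Krt5 at most 6.60 CPM in any library, and both also fell in knockdown cells (Krt14 -2.86, edgeR adjusted p = 0.00371, and Krt5 -1.45, 0.0477). In those cells Col17a1, the hemidesmosome collagen, passed in the other direction with the block (log2 fold change 2.08 ± 0.677 SE, adjusted p = 0.0532 by edgeR; blocked 2.05 and adjusted p = 0.0044). In control cells Plec, which links beta 4 to keratin, passed only with the block (log2 fold change -0.88 ± 0.328 SE, adjusted p = 0.0818 by edgeR, blocked -0.95 and adjusted p = 0.017). Plec also passed only with the block in knockdown cells (blocked -0.90, edgeR adjusted p = 0.022).

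Basement membrane partners and other laminin receptors gave 4 genes higher and 0 lower of 14 tested with quiescence in control cells, beside 8.33% of all genes called higher and 11.7% lower (median 0.66). With the block 7 were higher and 1 lower, beside 16.8% and 18.5%. Fras1 (log2 fold change 4.36 ± 0.887 SE, adjusted p = 0.00611 by edgeR) and Frem2 (1.05, edgeR adjusted p = 0.043), which encode proteins of 1 complex at the epithelial basement membrane, rose. Fras1 stood at 0.281, 0 and 0.0568 CPM in proliferating and 1.24, 3.37 and 2.80 CPM in quiescent controls; the former are at or near the limit of counting, so the fitted size depends on the prior count. The type IV collagen chains Col4a5 (3.34, 0.0419) and Col4a2 (0.99, 0.0195) rose with them. In knockdown cells the 4 higher were Fras1, Col4a2, Frem2 and Col4a1, beside 7.59% of all genes, and 8 passed higher with the block, beside 15.9%. The last list held 13 tested genes for other ligands, most of the matrix but Cdh1 and Vcam1 of the cell surface. Of these 13, 1 rose, Mfge8 (1.56, edgeR adjusted p = 0.00143), and 2 fell, Ltbp1 (-2.42, 0.0185) and nephronectin Npnt (-1.88, 0.0186). These counts stand beside 8.33% of all genes called higher and 11.7% lower, and are near those shares (median -0.15). With the block 4 of the 13 rose and 4 fell, beside 16.8% and 18.5% of all genes (median -0.16). In knockdown cells Mfge8 rose and Npnt fell, beside 7.59% of all genes called higher and 10.8% lower. With the block 2 passed each way, beside 15.9% and 17.2%, and are near those shares.

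**Figure D5:**
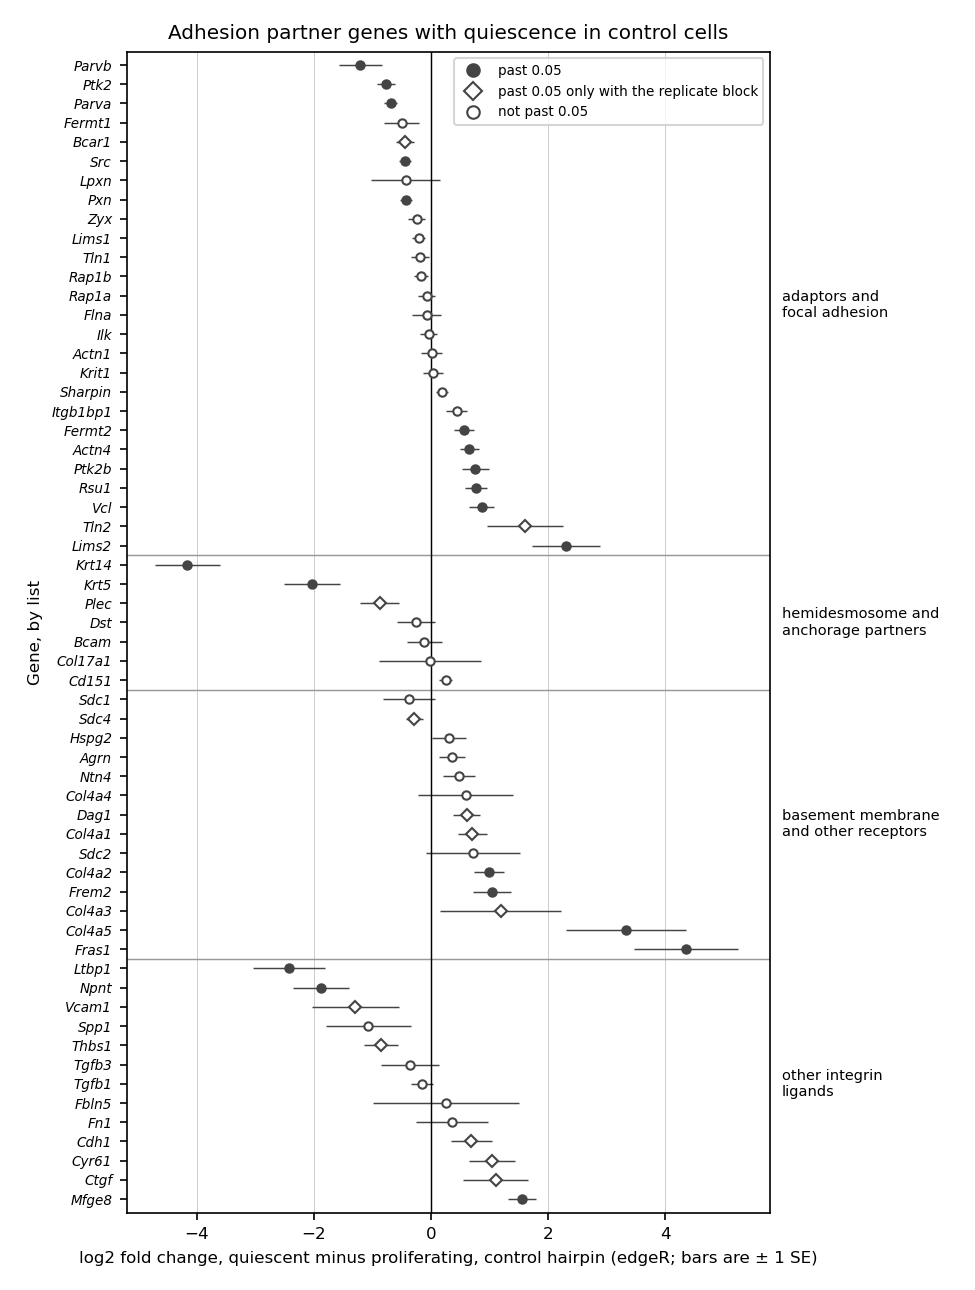
Log2 fold change, quiescent minus proliferating with the control hairpin, of the tested genes in the 4 lists of adhesion partners, sorted within each list; bars are 1 SE from edgeR, filled circles passed an adjusted p of 0.05 and diamonds passed only with the replicate block. Krt14 lies at -4.16 and Fras1 at 4.36.

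For the knockdown contrasts edgeR called 0 of the 60 listed genes tested in either state and 0 for the interaction. An unadjusted p under 0.05 was reached by 0 of them in proliferating cells, 3 in quiescent cells and 0 for the interaction. Among all 12406 genes it was reached by 228, 1489 and 219. With the block it was reached by 3, 12 and 4 listed genes, beside 645, 2527 and 590 of all genes. DESeq2 called 0, 2 (Col17a1 and Col4a2) and 0, and the block 0, 3 and 0. The 2 and the 3 of 60 are near the shares of all genes called in quiescent cells, 2.93% by DESeq2 and 3.55% with the block. Col17a1 stood at 0.207, 0.0612 and 0.239 CPM in quiescent controls and 3.94, 0.895 and 2.34 CPM in quiescent knockdown cells (log2 fold change 3.78 ± 0.774 SE, adjusted p = 0.0656 by edgeR; blocked 3.76 and adjusted p = 0.00599). Its control values are at or near the limit of counting. Col4a2 stood at 274, 425 and 328 CPM and 617, 691 and 817 CPM (log2 fold change 1.05 ± 0.255 SE, adjusted p = 0.111 by edgeR; blocked 1.08 and adjusted p = 0.0114). Hspg2, the perlecan gene, stood at 351, 468 and 205 CPM and 164, 266 and 177 CPM (log2 fold change -0.75 ± 0.287 SE, adjusted p = 0.322 by edgeR; blocked -0.71 and adjusted p = 0.0384), and its groups overlapped.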

How the data were processed

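The deposited table gives counts as whole numbers, unnormalised, for 23337 symbols. Bowtie, TopHat, HTSeq and DESeq2 and the build mm10 are named per the submitters' processing notes. The annotation and the strand setting of the counting are not given in the sources used here. The kit was stranded and selected polyadenylated RNA, per the labels' protocols. There were 0 columns of samples left unused and 0 rows without a gene name.

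The software was R 4.3.3, edgeR 4.0.16 and limma 3.58.1. Genes kept by filterByExpr (minimum count 10) numbered 12406. TMM scaling, 4 group means over all 12 libraries and glmQLFTest gave p-values, adjusted by Benjamini-Hochberg over all tested genes (threshold 0.05). The fits were tested on simulated data. Gene positions and merged exon lengths are from GENCODE M21 (GRCm38). Replicates were compared before averaging: chi-square per degree of freedom ran from 38.3 to 104, so all were kept.

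Experiment numbers in the labels pair 1 library of each group: deviations from group means correlated in all 18 same-number pairs (0.225 to 0.789, mean 0.526), and their mean was -0.259 in 36 other pairs. The fit with experiment as a block is the replicate block.

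Members past the filter are named, and those called in any contrast with or without the block get their library values. From the lists, up to 3 called genes each way are named for quiescence in control cells; Fermt2, Actn4 and Pxn are named as called in knockdown cells. 1 member is not reported here and is in the counts only. The members and lists were chosen with earlier results of these data known. Alternatives were the replicate block, RLE size factors, no filter, a mean count of at least 50, the Wald test of DESeq2 1.42.0, a fit per hairpin or state alone, leaving out each library and, added after seeing the data, leaving out each experiment.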

Additional observations from a re-analysis of the deposited data

Results flagged for a closer look

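For Itga7 the knockdown effect pointed in opposite directions in the 2 states: lower in all 3 experiments of proliferating cells (log2 differences -0.69, -0.83 and -2.09) and higher in all 3 of quiescent cells (0.42, 0.12 and 0.41). The test of that difference was not passed: the interaction was 2.13 on the log2 scale (SE 1.31, edgeR adjusted p = 1; with the replicate block 1.86 and adjusted p = 0.836). Proliferating control cells of experiment 9 had 264 counts of Itga7 (15.0 CPM), and every other library had 3.44 CPM or less. The quiescent libraries held only 4, 7 and 15 counts with the control hairpin and 9, 8 and 21 with the Stag2 hairpin. Control and knockdown libraries overlapped in either state, so a reversal of direction was not shown.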

How the results depend on the processing

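RLE size factors, no filter on low counts and a mean count of at least 50 left each count of called members within 1.5 times its value. With the replicate block, members called for quiescence in knockdown cells numbered 14 instead of 9, and members called in both hairpins 11 instead of 6. Block and unblocked counts were within 1.5 times of each other for quiescence in control cells (14 and 10) and were 0 in the other 3 comparisons. The DESeq2 Wald test called 2 members for knockdown in quiescent cells. Leaving out 1 library gave 8 to 10 called members for quiescence in control cells and 5 to 11 in knockdown cells, 5 without the quiescent knockdown library of experiment 9. Leaving out an experiment, tried after seeing the data, gave 4 (without experiment 7) and 5 (without experiment 9) in control cells, and 4 (without experiment 5) and 3 (without experiment 7) in knockdown cells; these fits have 2 libraries a group. The shares of all genes called in these fits and in those without 1 library are not given here. These counts thus do not set the members apart from other genes. No called value changed sign. Over all genes, the block moved the calls for quiescence from 2481 to 4374 in control and from 2279 to 4096 in knockdown cells, and those for knockdown in quiescent cells from 54 to 440 (DESeq2 377). Over the 31 gene results followed, the block made 9 pass that had not and lost 0, and DESeq2 added 5 and lost 0. Fits per hairpin or state alone added 1 and lost 3. Over 372 fits without 1 library, 36 lost a call and 6 gained one.

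Depth limits the scarce members: Itga1, Itga7, Itgb7, Itgb3, Itga4 and Lamc3 have libraries under 1 CPM, where a library's limit of detection is 0.136 to 0.207 CPM. Reads from PCR are not independent molecules, so this covers counting error only.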
